A study of Sus scrofa with 34 samples.

Results

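Enzymes that clear the aldehydes formed when lipids are oxidized were followed in pig liver under 4 diets and in pig ileum under 2 diets. The genes were taken by symbol: of the 10 listed, 9 had a row among the 25880 Ensembl genes of the count tables, and ALDH9A1 could not be matched to an Ensembl identifier in the gene names used here. The 24 liver libraries came from 6 piglets per diet, and the 10 ileum libraries from 5 control and 5 PFA piglets that also gave a liver library. All were weaned crossbred piglets sampled on day 28 of feeding. Control pigs ate a basal diet, PFA pigs the same diet with a phytogenic feed additive built on oregano and caraway oils, carvacrol, methyl salicylate and menthol, OO pigs a basal diet with added heated (oxidized) rapeseed oil, and OO + PFA pigs the oil and the additive together. The basal diets held only a little fresh rapeseed oil, so the oil diets differed from them in the amount of oil as well as in its oxidation, and these cannot be told apart. The pigs of a diet shared 1 pen, which makes the effects of pen and diet inseparable (they cannot be told apart), and p-values measure the spread between pigs. Pigs are named by diet (C, P, OO, OP) and number.

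Peroxidized polyunsaturated fatty acids break down to reactive aldehydes such as 4-hydroxynonenal and malondialdehyde, which bind to proteins and DNA. Cells remove them by oxidation to acids (aldehyde dehydrogenases), by reduction to alcohols (aldo-keto and carbonyl reductases), by reduction of the carbon double bond (alkenal reductases) and by conjugation with glutathione. The liver is rich in these enzymes, and the intestinal epithelium meets dietary aldehydes before it.

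Per library, between 18738055 and 42446834 read pairs were counted on genes. The OO + PFA liver OP-77, which the study left out for suspected RNA degradation, stood apart, with 48.3% of its counts in its 10 highest genes against 23.8% to 34.8% in the other livers, and the liver fits hold the other 23 libraries. Liver libraries carried albumin (ALB) at a median of 134282 CPM and ileum libraries at 0.0945, and the enterocyte gene FABP2 was at 2048 CPM in ileum and at 0 in liver, so both tissues carried their defining markers. In bulk tissue, fewer cells of a type and less RNA per cell cannot be told apart.

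The upstream sequences of 3 members are shown to set genes far lower in ileum than in liver (ALDH2 and ALDH7A1) beside a close relative that was not called between the tissues (ALDH1B1). Each is the 250 bases before the outermost RefSeq start of the gene on Sscrofa11.1, 5′ to 3′ on the strand of the gene, and lies outside annotated exons (ALDH2 at chr14:39933114-39933363, minus strand, ALDH7A1 at chr2:129709729-129709978, minus strand, ALDH1B1 at chr1:239109564-239109813, plus strand). Capitals mark the GC box GGGCGG and the CCAAT box, on either strand.
ALDH2: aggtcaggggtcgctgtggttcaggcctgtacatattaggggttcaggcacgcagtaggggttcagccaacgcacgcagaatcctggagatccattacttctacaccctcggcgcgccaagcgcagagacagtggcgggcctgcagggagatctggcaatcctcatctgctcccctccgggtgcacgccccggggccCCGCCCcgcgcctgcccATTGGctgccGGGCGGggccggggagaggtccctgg
ALDH7A1: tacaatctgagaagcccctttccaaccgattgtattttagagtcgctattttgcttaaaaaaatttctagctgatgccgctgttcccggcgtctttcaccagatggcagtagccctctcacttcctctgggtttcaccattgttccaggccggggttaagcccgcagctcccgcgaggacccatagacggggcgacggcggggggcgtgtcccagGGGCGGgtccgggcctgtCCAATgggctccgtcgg
ALDH1B1: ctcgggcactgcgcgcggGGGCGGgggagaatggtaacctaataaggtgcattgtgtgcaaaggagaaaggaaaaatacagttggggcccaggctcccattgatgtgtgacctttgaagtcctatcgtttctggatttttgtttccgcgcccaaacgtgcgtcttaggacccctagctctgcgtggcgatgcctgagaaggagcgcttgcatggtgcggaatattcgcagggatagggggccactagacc
All 3 held a GC box, the nearest 20 bases from the start in ALDH2, 29 in ALDH7A1 and 226 in ALDH1B1. ALDH2 and ALDH7A1 also held a CCAAT box, 31 and 12 bases from the start, and ALDH1B1 held no CCAAT box. The other members did not follow this split, since PTGR1, which differed most between the tissues, had no CCAAT box in its window and AKR1B1, which was not called, had 1. For genes with a curated RefSeq transcript (NM), the window was placed before the outermost start of these transcripts only. The windows of PTGR1, AKR1A1 and AKR1B1 thus lie inside the annotated gene, and those of PTGR1, AKR1A1 and ALDH3A2 overlap annotated exons. A GC box was found upstream of 8 of the 9 members and in 46.4% of 19560 upstream windows of the same length, and a CCAAT box upstream of 3 of 9 against 31.6%. The core of the antioxidant response element, searched as TGACNNNGC on both strands, was in 0 of the 9 windows and in 10.05% of all windows. The consensus PPAR element, a direct repeat with 1 base between its parts, was in 0 of 9 and in 0.0358% of all. These are matches of letters within 250 bases only.

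Levels are given as CPM (the count of a gene relative to the library total, with library sizes scaled by TMM), and levels of different genes are compared per kilobase of RefSeq exon. In the 10 livers of control and PFA pigs scaled together with their ileum libraries, ALDH2 stood highest. ALDH2 (ENSSSCG00000009889, chromosome 14, 39902317 to 39933113), the mitochondrial dehydrogenase best known for acetaldehyde that also oxidizes 4-hydroxynonenal, had a median of 539.5 CPM per kb (380 to 712), above 99.1% of 11735 genes with a length. PTGR1 (ENSSSCG00000021386, chromosome 1, 252373272 to 252395948), which reduces the double bond of alkenals and inactivates leukotriene B4, had a median of 156 CPM per kb (106 to 209). AKR7A2 (ENSSSCG00000003491, chromosome 6, 77754172 to 77761609), a reductase of succinic semialdehyde and dialdehydes, followed at 108 CPM per kb (84.1 to 155).

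Middle levels were held by 4 members. ALDH3A2 (ENSSSCG00000018041, chromosome 12, 59936838 to 59953677), the membrane-bound fatty aldehyde dehydrogenase whose loss causes Sjögren-Larsson syndrome, was at 75.0 CPM per kb (60.3 to 86.8). ALDH7A1 (ENSSSCG00000014247, chromosome 2, 129663226 to 129709728), antiquitin of lysine breakdown, was at 61.9 CPM per kb (44.4 to 102.4). These neighbours differed by a log2 of 0.24 ± 0.33 (SD, n = 10), with an adjusted p of 0.0547 in a two-sided exact permutation test over 14 neighbouring pairs. AKR1A1 (ENSSSCG00000029256, chromosome 6, 165811245 to 165825168), the broad aldehyde reductase that also serves vitamin C synthesis, was at 49.5 CPM per kb (38.6 to 73.2) and did not differ beyond its spread from ALDH7A1 (adjusted p = 0.124, exact permutation test). ALDH1B1 (ENSSSCG00000005361, chromosome 1, 239109814 to 239114736), a mitochondrial relative of ALDH2, was at 28.1 CPM per kb (20.2 to 62.0). Every other neighbour in the liver order differed (adjusted p of at most 0.0273, exact permutation tests). The length used is the union of all RefSeq exons of a gene, and these tests take it as exact. The order depends on it, since in plain CPM AKR1A1 (median 204) stood above AKR7A2 (median 151) in the same livers.

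The last places belonged to AKR1B1 and CBR1. AKR1B1 (ENSSSCG00000040608, chromosome 18, 14593516 to 14752316), aldose reductase of the polyol pathway, was at 7.46 CPM per kb (5.30 to 10.4), still above 64.2% of genes. CBR1 (ENSSSCG00000031111, chromosome 13, 199617406 to 199622407), a reductase of quinones and prostaglandins, was near silent. RefSeq places another gene described as carbonyl reductase [NADPH] 1 next to it, at 199600768 to 199606618, so the row named CBR1 need not hold all carbonyl reductase reads. No stretch of at least 75 exon bases of CBR1 with 95% identity was found elsewhere in the genome. Of the 9 members, only AKR1A1 had such copies, over 2.11% of its exon bases.

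In liver, no member was called in any comparison between the diets. With edgeR's quasi-likelihood test, p-values were adjusted over 13831 genes, and a gene was called where the adjusted p did not exceed 0.05. By this rule 0 of 9 members were called for OO against control, against a background of 2.71% of all genes. The counts were likewise 0 of 9 for OO + PFA against control (background 5.08%), OO + PFA against PFA (1.58%), the oil effect pooled over both additive levels (11.8%) and the test across the 4 diets (3.66%). For PFA against control, OO + PFA against OO, and the interaction of oil and PFA, 0 of 9 members were called and the background was 0%. DESeq2 called no member either. At an unadjusted p under 0.05 edgeR had 1 of 9 members in 5 comparisons and 0 of 9 in the others. The 1 was CBR1 for PFA against control and across the diets. It was ALDH3A2 for OO + PFA against PFA and the pooled oil effect, and ALDH1B1 for the interaction. CBR1 passed the filter on low counts through a few PFA, OO and OO + PFA pigs and no control pig. Its place among the 9 thus depends on those diets, and its p-values are no independent test of them. Of the 13831 genes, 2956 had an unadjusted p under 0.05 for OO against control, 3119 for OO + PFA against control, 3248 for OO + PFA against PFA, 3840 for the pooled oil effect and 3483 across the diets. The comparisons without a call had 1522 for PFA against control, 1176 for OO + PFA against OO and 1881 for the interaction, with 43, 31 and 150 DESeq2 calls.

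**Figure D1:**
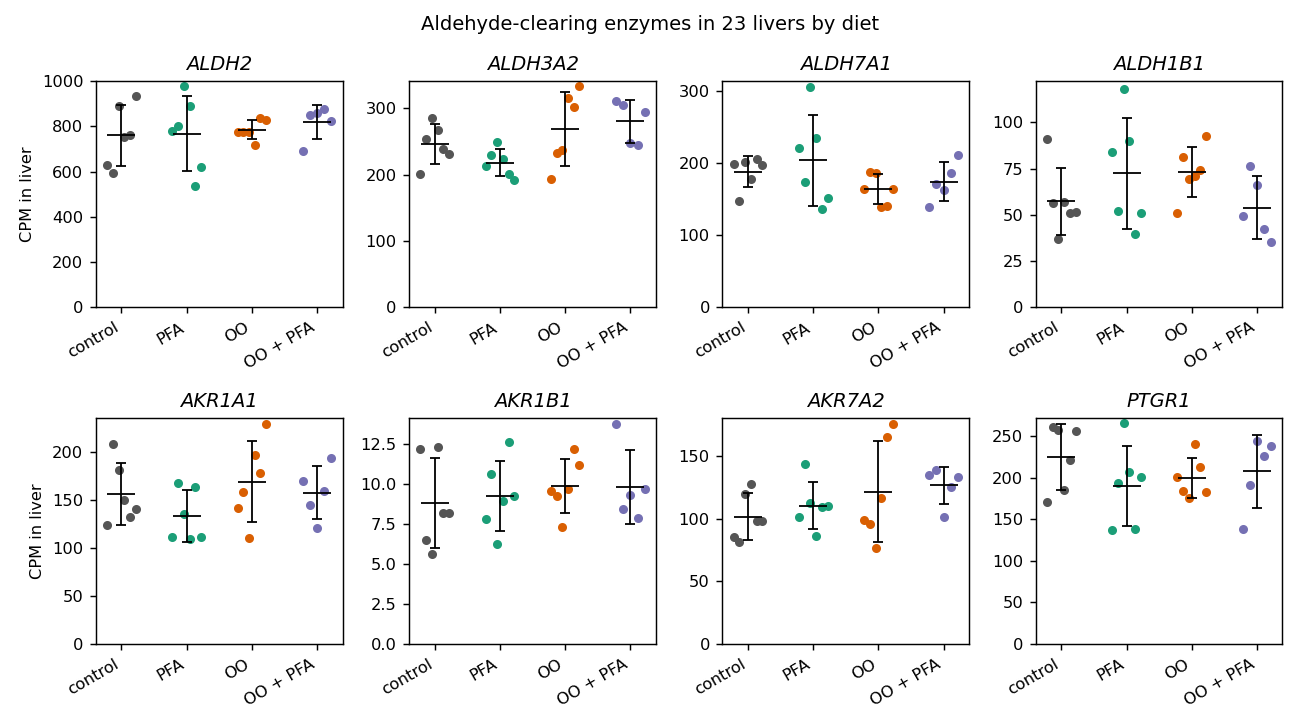
CPM of 8 members in the 23 liver libraries, 1 panel per gene and 1 point per pig, with the mean and SD of each diet in black and a linear axis from 0. The diets overlap in every panel, and the OO pigs spread widely for ALDH3A2 (193 to 334) and AKR7A2 (76.9 to 176).

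Several members varied less between pigs than most genes did. Within diets, the SD of log2 CPM was 0.21 for ALDH3A2, which 15.3% of genes undercut, 0.23 for ALDH2 and 0.28 for ALDH7A1, against a median of 0.35 over 13831 genes. ALDH1B1 varied more, with an SD of 0.46, and CBR1 had 1.60, above 99.5% of genes. These values are set against genes of all levels, and genes of like level were not compared.

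For OO against control, 8 members (CBR1 aside) had log2 fold changes between -0.20 and 0.36, with 95% intervals that lay between -0.53 and 0.87, so that changes above 1.82-fold up or 1.45-fold down lay outside all of them. The median of these 8 was 0.12, beside 0.06 over all genes. The dehydrogenases gave 0.05 for ALDH2 (SE 0.14), 0.13 for ALDH3A2 (SE 0.13), -0.20 for ALDH7A1 (SE 0.16) and 0.36 for ALDH1B1 (SE 0.25). The reductases gave 0.12 for AKR1A1 (SE 0.17), 0.16 for AKR1B1 (SE 0.20), 0.26 for AKR7A2 (SE 0.18) and -0.18 for PTGR1 (SE 0.16). The smallest adjusted p among them was 0.415 (edgeR), for AKR7A2.

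The same OO livers did differ in the genes of fatty acid oxidation. Of 12 PPAR-alpha targets, 7 were called higher for OO against control and 0 lower, beside 2.71% of all genes called. Their median log2 fold change was 0.98. CPT1A, which admits long-chain fatty acids to mitochondria, went from a median of 74.1 CPM in control (57.1 to 88.4) to 235 CPM in OO (172 to 267), a 3.03-fold rise (log2 1.60, SE 0.15). Of 10 Nrf2 targets, genes usually induced by electrophiles, 0 were called in any liver comparison (edgeR), where 0% to 11.8% of all genes were. For OO against control 9 of the 10 had a positive log2 fold change, with a median of 0.33 beside 0.06 over all genes. At such backgrounds 0 of 10 calls says little.

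ALDH3A2 came nearest to a call. Its lowest, median and highest CPM were 201, 246 and 286 in control, 192, 218 and 249 in PFA, and 193, 269.9 and 334 in OO. The 5 OO + PFA pigs had 310.2 (OP-79), 305 (OP-98), 248 (OP-105), 244 (OP-126) and 294 (OP-137). The PFA pigs were low and the OO + PFA pigs high, with the PFA pig P-95 above 2 OO + PFA pigs, and in OO the pigs OO-99, OO-102 and OO-130 were above every control pig while OO-74 was below all of them. OO + PFA against PFA gave a log2 fold change of 0.36 (SE 0.13, 95% interval 0.09 to 0.64), with an unadjusted p of 0.0122 and an adjusted p of 0.126 in edgeR, and it turned to -0.0065 with the GC content of each library corrected. The pooled oil effect was 0.24 (SE 0.09, 95% interval 0.05 to 0.44), 1.19-fold, with 10 of 11 oil-fed pigs above the mean of the others, and an adjusted p of 0.0851. Without OO-74 it was 0.28 with an adjusted p of 0.0273, the only call of a member in the diet comparisons among all alternatives run.

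The base composition of the libraries moved with ALDH3A2. The GC slope of a library, the change of log2 CPM per 10 percentage points of GC content of the exons, had medians of -0.35 in control, -0.36 in PFA, -0.17 in OO and -0.07 in OO + PFA. The 3 OO livers with high ALDH3A2 had slopes of 0.05 (OO-99), 0.17 (OO-102) and 0.13 (OO-130), and the other OO livers had -0.59 (OO-74), -0.39 (OO-88) and -0.62 (OO-97). Over the 23 livers the slope went with ALDH3A2 at a Pearson r of 0.70 (permutation p = 0.00021, adjusted p = 0.00084 over 8 members) and a Spearman rho of 0.70 (permutation p = 0.00036, adjusted p = 0.00096). Leaving out the 2 most distant libraries in slope gave r = 0.73, and within the 2 forms of library title (PigLiv and PL) it was 0.82 and 0.55. The PFA livers ran the other way, with the lowest slope (-0.72) and the highest ALDH3A2 (249 CPM) in P-95 and the highest slope (-0.18) and the lowest ALDH3A2 (192 CPM) in P-138.

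ALDH3A2, AKR7A2 and AKR1A1 have GC-rich exons (59.5%, 62.3% and 55.8%) and ALDH7A1 GC-poor ones (45.4%). The slope is fitted over the genes of the same libraries, so GC-rich genes tend to rise and GC-poor genes to fall with it. The permutation p-values, also that of ALDH3A2 above, do not allow for this. The share of all genes with such a relation is not given here, so these relations do not set the members apart. The slope went with AKR7A2 at r = 0.70 and rho = 0.70 (permutation p = 9e-05 and 0.00036, adjusted p = 0.00072 and 0.00096, r = 0.77 without 2 libraries, 0.85 and 0.57 within title forms). It went with AKR1A1 at r = 0.65 and rho = 0.70 (permutation p = 0.00071 and 0.00033, adjusted p = 0.00142 and 0.00096, r = 0.68 without 2 libraries, 0.69 and 0.91 within title forms). With ALDH7A1 the relation was inverse, at r = -0.66 and rho = -0.62 (permutation p = 0.00055 and 0.00173, adjusted p = 0.00142 and 0.00346, r = -0.51 without 2 libraries, -0.76 and -0.55 within title forms). AKR1B1 had r = 0.49 and rho = 0.47 (permutation p = 0.0176 and 0.0258, adjusted p = 0.0282 and 0.0413), which fell to r = 0.29 without the 2 libraries and so rests on them. ALDH2, ALDH1B1 and PTGR1 showed no relation past the threshold.

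With the GC content of each library corrected, the pooled oil effect was -0.02 for ALDH3A2 (SE 0.09, 95% interval -0.20 to 0.17) and -0.22 for AKR7A2 (SE 0.11, 95% interval -0.45 to 0.01), where it had been 0.23 (SE 0.13) for AKR7A2 as counted. For AKR1A1 it went from 0.18 (SE 0.12) to 0.08 (SE 0.11), and for ALDH7A1 from -0.21 (SE 0.12) to -0.14 (SE 0.10). All 9 members had a GC value, while 79.7% of the genes tested had one, so the corrected fit covers those 11021 genes. The median slope was itself higher in the oil diets, so the correction can also remove a change that comes with the oil. The part of diet and of base composition in these shifts was not tested.

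**Figure D2:**
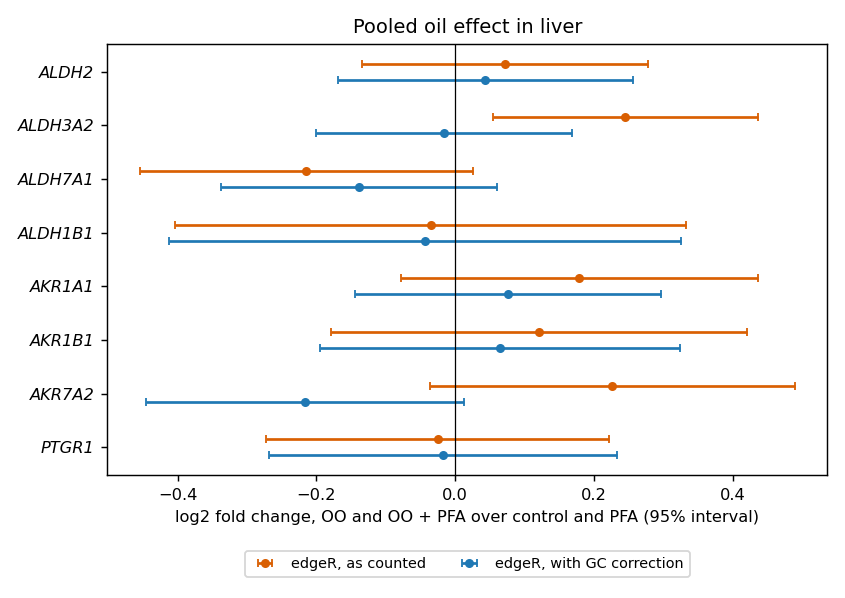
Log2 fold change of 8 members for the oil-fed livers (OO and OO + PFA, n = 11) over the others (control and PFA, n = 12), with 95% intervals from edgeR, as counted (orange) and with the GC correction (blue). ALDH3A2 moves from 0.24 to -0.02 and AKR7A2 from 0.23 to -0.22, while ALDH2 (0.07 and 0.04), ALDH1B1 (-0.04 and -0.04) and PTGR1 (-0.03 and -0.02) move little.

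AKR7A2 itself ran from 81.1 to 128 CPM in control (median 98.03), 86.2 to 144 in PFA (median 109) and 76.9 to 176 in OO (median 108). The 5 OO + PFA pigs had 135 (OP-79), 139 (OP-98), 101 (OP-105), 125 (OP-126) and 133 (OP-137). The OO pigs OO-102 (165) and OO-130 (176) were the highest of the 23 livers, and OO-97 the lowest.

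ALDH7A1 had lowest, median and highest values of 148, 199 and 206 CPM in control, 136, 198 and 306 in PFA, and 139, 165 and 188 in OO. The 5 OO + PFA pigs had 139 (OP-79), 171 (OP-98), 163 (OP-105), 186 (OP-126) and 212 (OP-137). All 6 OO pigs lay below the control median, but the groups overlapped, and the pooled oil effect had an unadjusted p of 0.078 and an adjusted p of 0.238 (edgeR). ALDH7A1 went with the summed level of 7 hepatocyte markers (ALB, APOA1, TTR, TF, FGB, APOC3 and AHSG) at r = 0.83 and rho = 0.79 over the 23 livers (permutation p = 1e-05 for both, the smallest these permutations can give, adjusted p = 0.00036 over 72 relations). It was r = 0.71 without 2 libraries and 0.78 and 0.90 within title forms. That sum ranged from 107702 to 183636 CPM in control, 130946 to 225589 in PFA, 120381 to 147714 in OO and 119320 to 149845 in OO + PFA, and its part in the level of ALDH7A1 was not tested. The permutations ignored diet, so their p-values also take in differences between the diets.

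ALDH1B1 had the largest fitted interaction of oil and PFA after CBR1. Its lowest, median and highest CPM were 36.7, 53.9 and 90.8 in control, 39.5, 68.1 and 118 in PFA, and 51.1, 72.6 and 92.4 in OO. The 5 OO + PFA pigs had 49.4 (OP-79), 76.3 (OP-98), 66.1 (OP-105), 42.3 (OP-126) and 35.2 (OP-137). OO and PFA alone were both somewhat above control in median, and the pigs given both were not, with wide overlap. The interaction was -0.78 (SE 0.36, 95% interval -1.52 to -0.04), with an unadjusted p of 0.0389 and an adjusted p of 0.341 in edgeR, among 0 calls over all genes. Leaving out each pig in turn gave values from -0.96 to -0.60.

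ALDH2, PTGR1, AKR1A1 and AKR1B1 had overlapping levels in all diets. ALDH2 ranged from 535 to 978 CPM over the 23 livers (median 779), with the OO pigs held between 719 and 839. PTGR1 ranged from 136.8 to 266 CPM (median 201), and its pooled oil effect was -0.03 (SE 0.12). AKR1A1 ranged from 109.6 to 229.5 CPM (median 150.1). AKR1B1 ranged from 5.65 to 13.8 CPM (median 9.26), with a pooled oil effect of 0.12 (SE 0.14).

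AKR1B1 moved with macrophage markers. Over the 23 livers it went with the summed level of 6 macrophage markers (CD68, CD163, MARCO, CSF1R, C1QA and C1QB) at r = 0.88 and rho = 0.91 (permutation p = 1e-05 for both, adjusted p = 0.00036 over 72 relations of 9 marker lists and 8 members). It was r = 0.84 without the 2 libraries farthest out, and 0.84 and 0.90 within title forms. PTGR1 ran the other way, at r = -0.63 (permutation p = 0.00139, adjusted p = 0.0334) and rho = -0.58 (permutation p = 0.00416, adjusted p = 0.0767), with r = -0.55 without 2 libraries and -0.56 and -0.72 within title forms. The macrophage sum had medians of 495 CPM in control (231 to 870.0), 669 in PFA (362 to 928), 713 in OO (622 to 1007) and 716 in OO + PFA (440 to 1223). Only these 2 relations and that of ALDH7A1 with hepatocyte markers had an adjusted p for r of at most 0.05 among the 72. The share of all genes with such a relation to the marker sums is not given here. These relations therefore do not set the members apart.

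**Figure D3:**
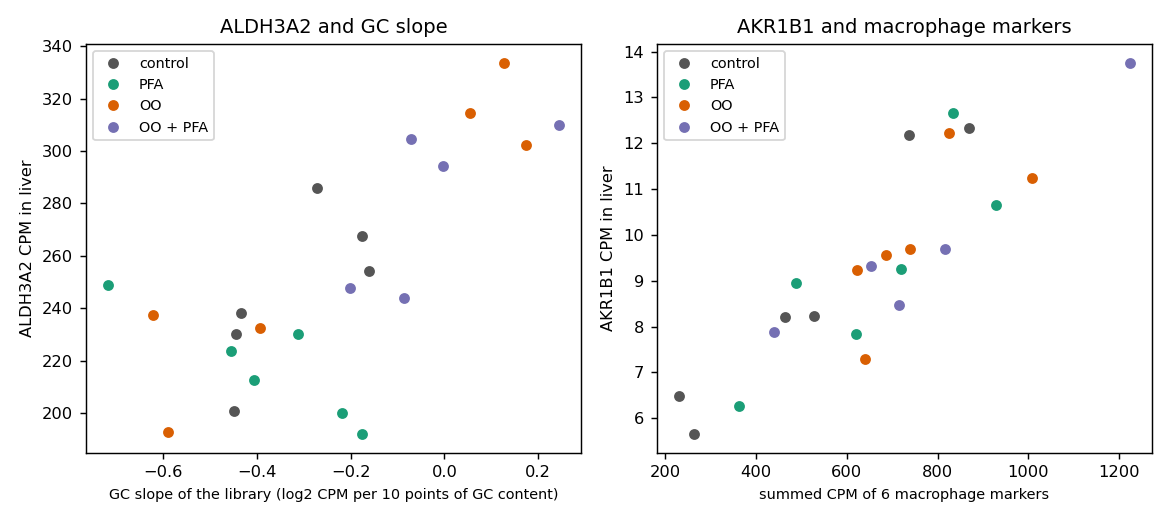
Left, ALDH3A2 in CPM against the GC slope of the library, and right, AKR1B1 in CPM against the summed CPM of 6 macrophage markers, with 1 point per liver (n = 23) coloured by diet. The 3 OO livers high in ALDH3A2 have the highest slopes of their diet, while among the PFA livers P-95, with the lowest slope, is the highest in ALDH3A2.

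Members also varied with each other. Of 28 pairs over the 23 livers, 6 had an adjusted p for r of at most 0.05, 4 of them positive and 2 negative. The share of all gene pairs with such a relation is not given here, so this count does not set the members apart. ALDH3A2 went with AKR1A1 at r = 0.67 and rho = 0.66 (permutation p = 0.00062 and 0.00095, adjusted p = 0.014 and 0.0266, r = 0.55 without 2 libraries, 0.77 and 0.59 within title forms), and these are members that follow the GC slope. ALDH2 went with ALDH7A1 at r = 0.59 and rho = 0.53 (permutation p = 0.00284 and 0.0111, adjusted p = 0.0215 and 0.0622, r = 0.49 without 2 libraries), but at 0.32 and 0.84 within title forms. AKR1B1 ran against PTGR1 at r = -0.58 and rho = -0.50 (permutation p = 0.00384 and 0.0162, adjusted p = 0.0215 and 0.0756, r = -0.45 without 2 libraries, -0.38 and -0.77 within title forms). It ran against ALDH7A1 at r = -0.53 and rho = -0.56 (permutation p = 0.00962 and 0.0066, adjusted p = 0.0449 and 0.0462, r = -0.44 without 2 libraries, -0.51 and -0.52 within title forms). The other positive pairs joined AKR7A2 to ALDH3A2 (r = 0.64, rho = 0.58) and to AKR1A1 (r = 0.58, rho = 0.56), with permutation p of 0.001 and 0.00367 for r, adjusted to 0.014 and 0.0215, and of 0.00439 and 0.00629 for rho, both adjusted to 0.0462. Without 2 libraries these were r = 0.58 and 0.70, and within title forms 0.75 and 0.54 for the former and 0.70 and 0.57 for the latter. The part of base composition and of cell content in these relations was not tested.

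CBR1 was counted in few pigs. Of 24 liver libraries, 19 had at most 6 counts and 14 at most 3, a level at which a library cannot be told from none. Control pigs had 2 (C-71), 6 (C-80), 5 (C-85), 3 (C-92), 0 (C-100) and 4 (C-110) counts. PFA pigs had 185 (P-67), 1 (P-75), 0 (P-95), 1 (P-107), 27 (P-134) and 3 (P-138). The other pigs above 10 counts were OO-130 (13), OP-126 (24) and OP-137 (38), so such pigs occurred in the PFA, OO and OO + PFA diets and not among the control pigs.

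CBR1 counts in the ileum were 0 or 1 in all 10 libraries, also in P-134, whose liver had 27. The fitted log2 fold change for PFA against control was 3.16 (SE 1.13, unadjusted p = 0.0104, adjusted p = 0.34 in edgeR), and it rests mainly on P-67 and P-134, since the other 4 PFA pigs had at most 3 counts. For OO against control it was 0.43 (SE 1.33) and for OO + PFA against control 2.32 (SE 1.20). These fitted values depend on the prior count and are no bounds. CBR1 passed the filter on low counts through PFA, OO and OO + PFA pigs and no control pig. Its p-values against control are therefore no independent test.

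**Figure D4:**
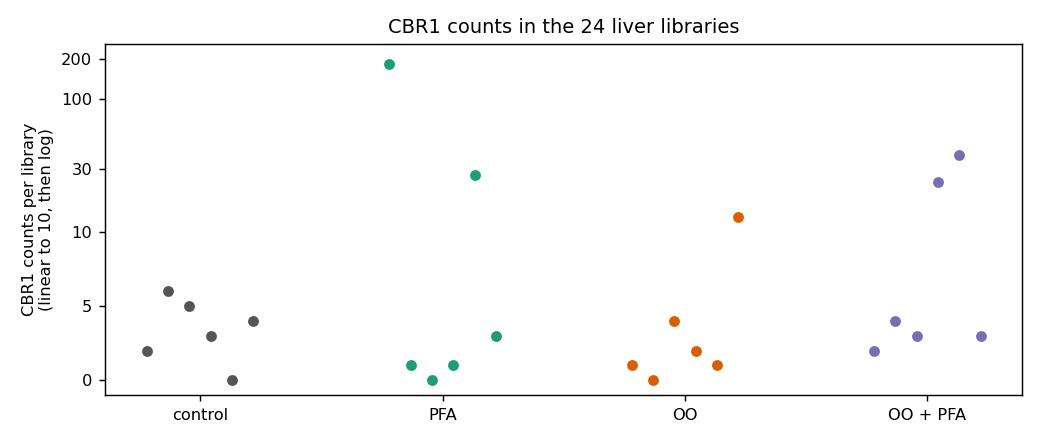
CBR1 counts in each of the 24 liver libraries by diet, on an axis that is linear to 10 and logarithmic above. The highest pigs are P-67 with 185, OP-137 with 38, P-134 with 27, OP-126 with 24 and OO-130 with 13, and all other livers have at most 6.

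In ileum, PFA against control moved no member detectably. Of the 8 members past the filter on low counts, 0 were called, against a background of 0% of 14300 genes (401 genes at an unadjusted p under 0.05, none of them a member, and 4 DESeq2 calls, none of them a member). The log2 fold changes ran from -0.11 for AKR1B1 (SE 0.23) to 0.18 for PTGR1 (SE 0.20), with 95% intervals inside -0.61 to 0.61, so a change above 1.53-fold was outside all of them. PTGR1 had 32.8 (C-71), 29.7 (C-80), 32.5 (C-92), 44.3 (C-100) and 22.1 (C-110) CPM in control and 35.2 (P-75), 31.1 (P-95), 29.8 (P-107), 34.5 (P-134) and 51.9 (P-138) in PFA. P-138 was the highest, and the groups overlapped. ALDH2 had 188, 144, 176, 168 and 162 CPM in the same control pigs and 137.05, 159.7, 143, 160.2 and 191 in the same PFA pigs, also overlapping.

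Liver and ileum of the same 10 pigs differed in most members. Both tissues were scaled together and fitted without pig as a block, so the pairing by pig did not enter these tests. Of 8 members, 6 were called, all lower in ileum, against a background of 78.1% of 14982 genes called and 37.5% called lower in ileum. A call as such therefore sets the members little apart. In these 6 every ileum library lay below every liver library, which held for 20.4% of all genes. The median log2 fold change of the 8 was -1.54, beside 0.05 over all genes. The 10 libraries of each tissue differ in more than these enzymes, since hepatocytes and gut epithelium, muscle and lymphoid cells are different mixtures. The ileum libraries also carry another form of title than the liver libraries. The study gives a lower minimum RNA quality for liver than for ileum. Tissue, library series and RNA quality therefore cannot be told apart in this comparison.

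PTGR1 differed most, with 200.3 to 396 CPM in liver (median 296) and 14.7 to 35.1 in ileum (median 22.1), a log2 fold change of -3.72 (SE 0.16) or 13.2-fold lower (adjusted p = 5.53e-15, edgeR). ALDH2 went from 777 to 1457 CPM (median 1104) in liver to 92.2 to 129 (median 108) in ileum, -3.32 (SE 0.13) or 9.96-fold lower. ALDH7A1 went from a median of 276 to 37.5 CPM, -2.88 (SE 0.14) or 7.37-fold lower. Each of these differences was many times its standard error.

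ALDH3A2, AKR1A1 and AKR7A2 were about 3-fold lower in ileum, by log2 values of -1.56 (SE 0.10), -1.51 (SE 0.13) and -1.44 (SE 0.15). Their medians went from 342 to 117 CPM, from 204 to 71.2 CPM and from 151 to 56.9 CPM. With library sizes left without scaling factors, which moves the median of all genes by 1.12, the call of AKR7A2 was lost (-0.32, adjusted p = 0.0682, edgeR).

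ALDH1B1 and AKR1B1 were not called. ALDH1B1 had 57.4 to 176 CPM in liver (median 79.9) and 94.8 to 133 in ileum (median 109), with a log2 fold change of 0.23 (SE 0.17, 95% interval -0.12 to 0.58, adjusted p = 0.208, edgeR), and 9 of 10 ileum libraries lay above the liver mean. AKR1B1 had 9.33 to 18.4 CPM in liver (median 13.1) and 8.08 to 20.01 in ileum (median 11.2), with -0.26 (SE 0.17, 95% interval -0.61 to 0.09, adjusted p = 0.156), which turned to 0.85 without scaling factors (adjusted p = 0.000534, edgeR). ALDH1B1 was then at 1.38, so that both were called higher in ileum, and relative to the median of all genes they were at 0.22 and -0.32. ALDH1B1 was also called without P-95 (0.35, adjusted p = 0.038), and AKR1B1 without C-80 (-0.43, adjusted p = 0.0112), the pig whose ileum was highest for it.

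**Figure D5:**
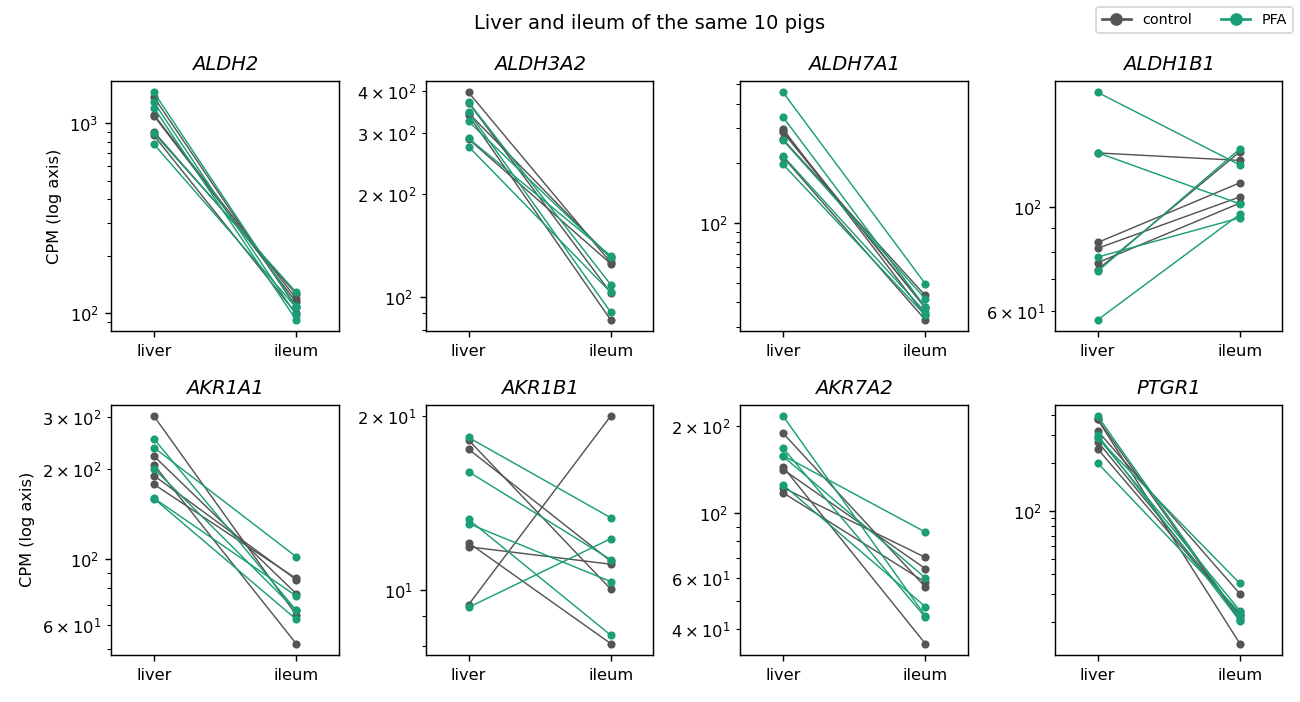
CPM of 8 members in liver and ileum of the same 10 pigs on log axes, 1 line per pig coloured by diet, with both tissues scaled together. In ALDH2, ALDH3A2, ALDH7A1, AKR1A1, AKR7A2 and PTGR1 every line falls and the tissues do not overlap, while lines of ALDH1B1 and AKR1B1 cross.

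The order of levels per kilobase therefore differed in ileum. ALDH2 remained the highest at a median of 52.8 CPM per kb (45.1 to 63.0), but AKR7A2 at 40.6 (25.4 to 61.6) and ALDH1B1 at 38.3 (33.4 to 46.9) came next and did not differ beyond their spread (log2 difference of -0.00 ± 0.38, SD, n = 10, adjusted p = 0.982, exact permutation test). ALDH3A2 at 25.6, AKR1A1 at 17.3, PTGR1 at 11.7, ALDH7A1 at 8.42 and AKR1B1 at 6.33 CPM per kb followed, each above the next (adjusted p of at most 0.0273, exact permutation tests). PTGR1 thus stood in the second place in liver and in the sixth place in ileum, and ALDH1B1 in the seventh and the third.

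The PFA effect was compared between the tissues over the libraries of these 10 pigs, again without pig as a block. The difference of the PFA effects was called for 0 of 8 members, against a background of 0% (739 genes at an unadjusted p under 0.05 and 0 DESeq2 calls), with log2 differences from -0.28 to 0.28 and 95% intervals inside -0.98 to 0.87. Pigs high in a member in liver were not detectably high in ileum. Among the 8 members the Pearson r between the tissues ran from -0.32 to 0.66 over 10 pigs, and the smallest adjusted p was 0.297 (permutation tests). The 0.66 belonged to ALDH7A1 (permutation p = 0.0372), with a rho of 0.44 (permutation p = 0.205), and fell to r = 0.23 without the 2 pigs farthest from the median in liver, so it rests on them.

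Other genes of aldehyde clearance were described from lists, whose calls for the pooled oil effect are to be read beside the 11.8% of all genes called. Of 11 other aldehyde dehydrogenases tested in liver, 0 rose and 1 fell with the pooled oil effect, namely ALDH6A1, of valine and thymine breakdown, with medians of 349.9 CPM in control, 362 in PFA, 301 in OO and 274 in OO + PFA (log2 -0.38, SE 0.11, adjusted p = 0.0301, edgeR). Of 10 other carbonyl, alkenal and alcohol reductases, 0 rose and 1 fell, namely AKR1D1, the steroid 5-beta-reductase of bile acid synthesis, at medians of 1295, 1324, 973 and 986 CPM in the same order (log2 -0.46, SE 0.11, adjusted p = 0.0136). Of 7 glutathione-dependent and export genes, 0 were called. The call of AKR1D1 held without each pig in turn. That of ALDH6A1 was lost without C-85, C-100, C-110, P-95, P-107, OO-99, OO-102, OO-130 or OP-79, with adjusted p of at most 0.0623. In no other liver comparison was any gene of these 3 lists called (edgeR).

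Between the tissues, most other dehydrogenases and reductases were lower in ileum, and the glutathione-dependent and export genes were split. Of 11 other aldehyde dehydrogenases 9 were lower and 2 higher in ileum, of 10 other reductases 9 were lower and 1 higher, and of 7 glutathione-dependent and export genes 4 were lower and 3 higher, against the backgrounds of 78.1% called and 37.5% called lower. Without scaling factors the calls were 6 lower and 3 higher, 7 lower and 1 higher, and 3 lower and 3 higher. With both tissues scaled together, ADH4, a liver alcohol dehydrogenase, had a median of 1136 CPM in control livers and was at 0 in all ileum libraries, and ALDH8A1, of the kynurenine pathway, had 145 CPM and was at 0 as well. ALDH1L1, the 10-formyltetrahydrofolate dehydrogenase, had 1260.4 CPM in control livers and 0.536 in control ileum. AKR1D1 had 1822 CPM in control livers and 1.29 in control ileum.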

How the data were processed

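RNA of ileum and liver was sequenced by the study from poly(A)-enriched stranded paired-end libraries. The authors aligned reads to Sscrofa11.1 with STAR 2.6.1d and used HTSeq to count read pairs on Ensembl genes. They deposited whole-number counts without normalization. Which annotation release and strand option were used is not given in the sources used here. The per-sample counts equalled the series tables for 34 of 34 libraries. HTSeq's lines for unassigned reads were left out of library sizes.

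Symbols were found for 14857 of 25880 genes, and exon length and GC content (RefSeq, Sscrofa11.1) for 13701. The members and lists were chosen with earlier results of these data known. All listed members are named, and of the other lists the called genes with the largest changes. Counts were fitted with edgeR 4.0.16 (TMM, filterByExpr, quasi-likelihood test, two-sided, Benjamini-Hochberg, threshold 0.05 on the adjusted p) in R 4.3.3 with limma 3.58.1, and intervals cover 95%. Liver was fitted over 23 libraries of 4 diets, ileum over 10, and both tissues over 20 libraries of 10 pigs. Tissue pairs come from the same pigs by number in the titles. The correlation of their deviations ran from -0.18 to 0.46 and was above 0.1 in 8 of 10. Correlations used 100000 permutations in Python 3.11.15 with numpy 2.4.6, pandas 2.3.3 and scipy, and marker sums were taken as log2 of CPM plus 1. Libraries were permuted without regard to diet, so these p-values also take in differences between diets. Each fit was tested on simulated counts. Alternatives were DESeq2 1.42.0, its size factors in edgeR, unscaled libraries (tissues), no low-count filter, a minimum of 10 counts per library, a lowess GC correction (span 0.5), a sex term, title form, all 24 livers, diets fitted alone, a fold change of at least 2, each pig left out, and pig as a block.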

Additional observations from a re-analysis of the deposited data

Results flagged for a closer look

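In each diet of 5 or 6 pigs, the gap of the highest or lowest pig to its nearest neighbour was set against the range of the diet (Dixon's test at 95%). Of 52 such groups of a member, tissue and diet, 6 held a pig that stood apart, where chance gives about 1 in 20. ALDH2 was low in OP-79 among the OO + PFA livers, at 689 CPM against 823 for the nearest pig. ALDH1B1 was high in C-71 among the control livers, at 90.8 CPM against 56.9. CBR1 was high in OO-130 among the OO livers, at 0.761 CPM against 0.0945, and in P-67 among the PFA livers, at 4.48 CPM against 1.01 for P-134. AKR1B1 was high in C-80 among the control ileum libraries, at 28.9 CPM against 16.7. PTGR1 was high in P-138 among the PFA ileum libraries, at 51.9 CPM against 35.2. No pig stood apart in more than 1 of these groups, and no cause was tested.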

How the results depend on the processing

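Of 315 recomputed counts of called members, 314 were within 1.5 times the reported count, pig as replicate block included, which changed no call. The exception was the pooled oil effect, where leaving out each pig gave 0 to 1 called members, the 1 being ALDH3A2 without OO-74. Over the 87 fold changes of every member and comparison, 117 of 2374 recomputed values had the other sign. Over 29 of those named in the text, with PFA in ileum not among them, 19 of 789 recomputed values had the other sign. In all of the 19 but AKR1B1 between the tissues neither value was called. With the GC correction these were, for OO against control, ALDH3A2 (-0.026) and AKR7A2 (-0.055), for the pooled oil effect ALDH3A2 (-0.016) and AKR7A2 (-0.22), and for OO + PFA against PFA ALDH3A2 (-0.0065). With all 24 livers ALDH2 was at -0.027 for the pooled oil effect. In OP-77 alone ALDH2 had 192 CPM, far below the other livers. With a sex term ALDH1B1 was at 0.024. Leaving out each pig gave ALDH2 -0.013 to 0.13 for OO against control, and for the pooled oil effect ALDH1B1 -0.12 to 0.073 and PTGR1 -0.065 to 0.042. Unscaled libraries put AKR1B1 at 0.85 between the tissues. ALDH1B1 was called between the tissues with the GC correction and pig as a block together (0.36, adjusted p = 0.0376, edgeR, chosen after seeing the data). CBR1 was left out of 3 of the 23 refits without 1 pig, since it no longer passed the filter. Calls over all genes also depended on the setting. With so few members, their counts of calls had little room to move and are not compared with these. For OO against control 375 genes were called by edgeR, 1079 by DESeq2, 875 with the GC correction, 224 with all 24 livers and 194 with both diets fitted alone. For OO + PFA against control they were 702, 1370 by DESeq2, 1530 with all 24 livers and 1690 with both diets alone, for OO + PFA against PFA 218, 697, 1225 and 963, and across the diets 506, 1776 by DESeq2, 848 with the GC correction and 1113 with all 24 livers. The cause of these changes was not tested. Depth limits CBR1, whose counts of at most 3 in 14 livers and in all ileum libraries are near the floor.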
